A study of Mus musculus with 24 samples.

Results

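Interferon-stimulated genes are genes that cells switch on after interferon binds its receptors. The set described here holds 36 such genes out of the 37991 genes of the count table, a list of symbols of interferon response genes that were all found in the table, through the pairing of Ensembl identifiers and symbols in GENCODE M1. RNA was sequenced from 24 mammary samples of female mice, 3 mice in each of 8 groups. PyMT mice, the F1 daughters of transgenic males and FVB females, carried 1 copy of a transgene in which the long terminal repeat of mouse mammary tumor virus drives the middle T antigen of polyoma virus, with expression restricted to mammary epithelium. Their tumors were compared with normal glands of FVB females of the same age. Both genotypes were sampled at week 6 (hyperplasia in PyMT), week 8 (adenoma/MIN, a mammary intraepithelial neoplasia), week 10 (early carcinoma) and week 12 (late carcinoma). Whole tissue was sequenced, so that each value is a sum over tumor or ductal epithelium, fat, vessels, stroma and any immune cells.

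Type I interferons, made by most cells when they sense foreign or misplaced nucleic acid, bind a receptor of Ifnar1 and Ifnar2 and act through the kinases Jak1 and Tyk2. A complex that holds Stat2 and Irf9 then binds the interferon-stimulated response element, a short promoter motif. Interferon gamma, a product of T cells and natural killer cells, acts through Jak1 and Jak2 and a different motif, the gamma-activated site, and it is a strong inducer of Irf1 and of the guanylate-binding and immunity-related GTPases. The products of these genes sense viral RNA, block translation, degrade RNA or attack vacuoles that hold pathogens, and in tumors a raised set of them is known as an interferon signature.

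The promoters of 6 members that the results turn on are shown for the motif they hold, 5 of them far above the other tumors in 1 mouse and Gbp2 lower in PyMT. RefSeq promoters (GRCm38.p6) were given for 27 of the 36 genes, and none was given for Dhx58, Zbp1, Usp18, Oas2, Mx2, Rtp4, Parp9, Parp14 and Iigp1. In the 250 bases before the gene start, the core of the response element, searched as GAAANNGAAA on both strands with N for any base, was present in 12 of the 27 genes (44.4%) and in 2.98% of all 32544 promoters in the RefSeq table. Those 12 genes were Gbp3, Gbp2, Isg15, Oas3, Oas1a, Bst2, Stat2, Irgm1, Igtp, Rsad2, Ifit3 and Ifit1. The gamma-activated site, searched as TTCNNNGAA, was present in 6 of the 27 genes (22.2%) and in 7.04% of all promoters. Oas1a, Bst2 and Igtp held both motifs, which overlapped only in Bst2. A match is a run of letters and not a measured binding site.

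The 150 bases before the start are given 5′ to 3′ on the strand of each gene, with the matches to the response element core in capitals. The windows lie on GRCm38.p6 at chr4:156200819-156200968 (minus strand) for Isg15, chr19:34640739-34640888 (plus strand) for Ifit1, chr12:26456453-26456602 (minus strand) for Rsad2, chr5:120907526-120907675 (minus strand) for Oas1a, chr3:142559894-142560043 (plus strand) for Gbp3 and chr3:142620513-142620662 (plus strand) for Gbp2.
Isg15: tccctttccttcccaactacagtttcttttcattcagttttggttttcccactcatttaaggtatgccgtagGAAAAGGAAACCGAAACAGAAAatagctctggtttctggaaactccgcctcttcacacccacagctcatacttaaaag
Ifit1: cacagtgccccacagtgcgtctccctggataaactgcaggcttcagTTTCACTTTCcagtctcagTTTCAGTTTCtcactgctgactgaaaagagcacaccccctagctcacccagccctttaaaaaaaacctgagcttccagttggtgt
Rsad2: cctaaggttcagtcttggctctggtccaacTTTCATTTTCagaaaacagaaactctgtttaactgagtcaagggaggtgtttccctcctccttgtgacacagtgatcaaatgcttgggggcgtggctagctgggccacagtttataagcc
Oas1a: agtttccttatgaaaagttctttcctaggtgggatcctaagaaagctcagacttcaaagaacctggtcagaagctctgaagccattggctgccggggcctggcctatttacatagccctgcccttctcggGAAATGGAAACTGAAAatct
Gbp3: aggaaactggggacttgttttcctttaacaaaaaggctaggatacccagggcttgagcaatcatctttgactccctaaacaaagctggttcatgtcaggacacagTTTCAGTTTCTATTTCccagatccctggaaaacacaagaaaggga
Gbp2: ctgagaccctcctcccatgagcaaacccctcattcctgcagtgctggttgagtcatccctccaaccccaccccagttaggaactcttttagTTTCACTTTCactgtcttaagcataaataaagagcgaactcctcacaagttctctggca

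The match in Isg15 is a run of 3 overlapping copies that begin 78, 72 and 66 bases before the start, and Oas1a has 2 that begin 20 and 14 bases before it. Ifit1 has 2 separate copies at 104 and 85 bases, Gbp3 has 2 overlapping copies at 45 and 39 bases, and Rsad2 and Gbp2 have 1 copy each, at 120 and 59 bases.

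Total counts per sample ran from 6969375 to 13516601, with a median of 8280270. A gene was tested if it reached a CPM (count scaled to the total of its library) of 1 in at least 12 of the 24 samples, which left 14918 genes and 35 of the 36 members. Oas3 fell under this limit, with normalized counts (counts over the size factor of the library) of 0 to 73.1 in PyMT and 0 to 16.4 in FVB samples. For sums of markers, here and below, CPM was instead scaled to the total over tested genes times the TMM factor, edgeR's scaling between libraries. The summed CPM of 5 luminal epithelium markers was 1944 to 3769 in PyMT and 426 to 2004 in FVB, so epithelium was present in all 24 tissues. That of 5 adipocyte markers was 84.7 to 1316 in PyMT and 4096 to 9740 in FVB, that of 4 endothelium markers 63.3 to 184 against 408 to 768, and that of 4 fibroblast markers 1280 to 2894 against 2867 to 11451. In whole tissue, fewer cells of a type and less RNA per cell cannot be told apart. The 6 T cell markers together reached at most 7.43 CPM in PyMT and 13.1 CPM in FVB.

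One library, PyMT week 8 replicate 2, stood apart for these genes and decided much of what follows. Of the 36 members, 31 had their highest normalized count of all 24 libraries there, against 9.54% of all tested genes. In 21 members the count was over 2-fold above the highest of the other 11 PyMT libraries, against 0.992% of all tested genes. The median ratio to the median of the other PyMT libraries was 5.85 over the members and 0.967 over all tested genes. These values describe 1 mouse and carry no test, and the comparisons between groups are given with and without it.

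**Figure D1:**
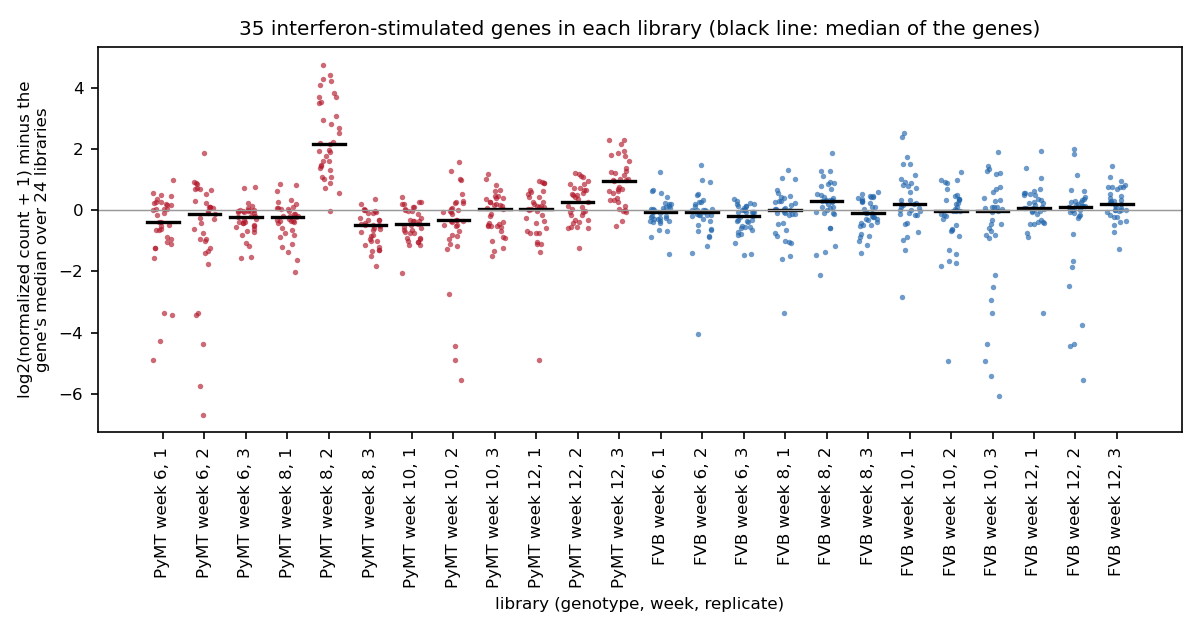
Each point is 1 of the 35 tested members in 1 library, as log2(normalized count + 1) minus the median of that gene over the 24 libraries, and the black lines are the medians over members. PyMT libraries are red and FVB libraries blue; the median was 2.17 in PyMT week 8 replicate 2, 0.96 in PyMT week 12 replicate 3 and between -0.50 and 0.31 in the other 22.

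The OAS family, named for enzymes that make the oligoadenylates which activate the RNA-degrading RNase L, was the group furthest above the other mice. Oas2 was counted at 1271 there and at 48.7 and 27.6 in the other 2 PyMT mice of week 8, and the highest value in any other PyMT mouse was 112. Oas1a was at 618 against 64.9 and 30, and Oasl2 was at 718 against 47.7 and 30. Oasl1, which restrains translation of Irf7, was at 189 against 11.5 and 12.4, and all 5 members of this family had their highest value of 24 libraries in this mouse.

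Antiviral effectors of other kinds followed. Rsad2 (viperin, which makes a nucleotide that stops viral RNA synthesis) was at 961 in this mouse, against 18.1 and 18.8 in the other 2, and was 9.72 times the highest other PyMT value. Ifi44 was at 935 against 69.6 and 45.3, Rtp4 at 926 against 196 and 76.5, and Mx2, an antiviral GTPase, at 399 against 6.68 and 21.2. Bst2 (tetherin, which holds budding virus at the membrane) was at 551 against 43.9 and 57.6, and Xaf1 at 475 against 32.4 and 35.3. Cmpk2, a mitochondrial nucleotide kinase beside Rsad2 on chromosome 12, was at 450 against 117 and 94.7. Ifi35 was the least raised of the 8, at 489 against 201 and 159, and for all 8 the other 2 mice lay below.

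In the ISG15 system, Isg15, a ubiquitin-like protein that is attached to other proteins, was at 248 in this mouse against 15.3 and 8.82 in the other 2. Usp18, which removes Isg15 and damps signaling at the interferon receptor, was at 357 against 15.3 and 9.41. Trim25, a ubiquitin ligase that activates the RNA sensor Ddx58, was high everywhere and moved little, at 1417 against 1039 and 989. Ifit1, which binds RNA that lacks the host's cap methylation, was at 862 against 44.8 and 21.8, and its neighbor Ifit2 was at 293 against 61.1 and 52.9. Ifit3 was an exception among the members, at 59.1 in this mouse against 21.9 and 11.8 in the other 2. It reached 59.1 in PyMT week 12 replicate 3 and 70.9 in FVB week 8 replicate 2 as well.

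Among the transcription factors, Irf7, which drives the later wave of type I interferon production, was at 1378 in this mouse against 123 and 78.2 in the other 2. Irf9 was at 900 against 297 and 342, and Stat2 at 829 against 237 and 219. Irf1 did not follow, at 468 against 418 and 465, which put this mouse in rank 13 of the 24 libraries for that gene. The sensors of nucleic acid were also high in this mouse, all 5 with their highest value of 24 libraries. Ifih1 (MDA5) was at 1410 against 323 and 348, Ddx58 (RIG-I) at 1792 against 664 and 598, and Dhx58 (LGP2) at 521 against 36.3 and 67.1. Zbp1, a sensor of Z-form nucleic acid, was at 255 against 95.4 and 51.2, and Eif2ak2 (PKR, a kinase that halts translation when it binds double-stranded RNA) at 1339 against 671 and 613.

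The guanylate-binding and immunity-related GTPases, which act on membranes around pathogens, were raised relative to other PyMT mice but not always above FVB mice. Gbp3 was at 843 in this mouse against 112 and 57.6 in the other 2, and 329 in the highest FVB mouse. Irgm1 was at 773 against 209 and 179. For Gbp2 (696 against 281 and 218), Igtp (478 against 62.0 and 52.4) and Iigp1 (1389 against 174 and 149) the highest value of all was instead in FVB week 10 replicate 1, at 1211, 554 and 2137. In the PARP9 group, which joins ADP-ribose and ubiquitin to histones and viral proteins, Parp9 was at 1853 against 500 and 491, Parp14 at 1831 against 686 and 548, and Dtx3l at 1317 against 657 and 580. Parp9 and Dtx3l share 458 exon bases on opposite strands, and whether the counting used strand is not given in the sources used here, so that their counts may not be separate.

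The other genes of the pathway were not high in this way. All 10 interferon genes examined (Ifnb1, Ifna1, Ifna2, Ifna4, Ifna5, Ifnk, Ifne, Ifng, Il28a and Il28b) had no count in this library. The median of each was 0 in both genotypes, so the absence of counts does not set this mouse apart. None of the 39 genes of the pathway list (ligands, receptors, kinases, inducers and inhibitors) was over 2-fold above the other PyMT mice. A second list of 28 interferon-induced genes outside the set had 11 with their highest value of 24 in this library and 8 over 2-fold above the other PyMT mice, among them Ddx60 at 1118 against at most 275.

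Several other measures moved with this library. Its summed luminal epithelium markers, at 3769 CPM, were the highest of the 12 PyMT libraries, where the others ran from 1944 to 3054 CPM. Its adipocyte (84.7 CPM), endothelium (63.3 CPM) and fibroblast (1280 CPM) markers were the lowest of the 12. Markers of leukocytes other than macrophages were low in sum, though not always low for a PyMT library. The 6 T cell markers came to 4.26 CPM, within the range of 0 to 7.43 CPM of the other PyMT libraries, with Cd3d, Cd3e, Cd4 and Cd8a at 0. The other 2, Cd3g and Cd2, were at 16.9 and 20.6 normalized counts, each over 2-fold above the other PyMT libraries and less than 1 packet, a step in the counts described next. The 5 natural killer cell markers came to 3.09 CPM (rank 4 of the 12 PyMT libraries), with Ncr1, Nkg7, Prf1 and Gzma at 0. The 3 plasmacytoid dendritic cell markers came to 1.71 CPM (rank 5), with Ccr9 and Klk1 at 0. The 4 B cell markers came to 1.71 CPM (rank 3) and the 3 neutrophil markers to 7.56 CPM (rank 11). The 6 macrophage markers summed to 315 CPM, the fifth highest of the 12. In 13 of the 24 libraries (6 PyMT and 7 FVB) the counts of weakly expressed genes piled up at a common step of 8 to 25 reads, here called a packet; the step was 23 reads in this library, and 2.87% of 3799 genes at 10 to 30 CPM were at 0 in it, second to 4.4% in FVB week 10 replicate 3. The 265 reads of Isg15 were thus 11.5 packets, the 1356 reads of Oas2 were 59.0 packets and the 63 reads of Ifit3 were 2.7 packets. The part of the tissue markers in these values was not tested.

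Another PyMT mouse came second by a distance. In PyMT week 12 replicate 3 the members lay 0.96 above their gene medians on the log2 scale, 15 of the 35 tested members were over 2-fold above them against 4.28% of all tested genes, and this mouse held the highest value of the other 11 PyMT mice for 23 of the 36 members against 6.79% of all tested genes. Its Irf7 was at 577, against 129 and 172 in the other 2 PyMT mice of week 12, and its Isg15 was at 97.0, against 20.6 and 41.7. No packet step was found in this library, and 0% of the genes at 10 to 30 CPM were at 0. Its luminal epithelium markers, at 3054 CPM, were the highest of the other 11 PyMT libraries, and its fibroblast markers (1363 CPM) and basal epithelium markers (112 CPM) the lowest. The part of these markers was not tested. Against their gene medians over the 24 libraries, the OAS family stood at 1.45 and the 5 GTPases at -0.06, although this mouse also held the highest value of the other 11 PyMT mice for Gbp2, Gbp3 and Irgm1.

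**Figure D2:**
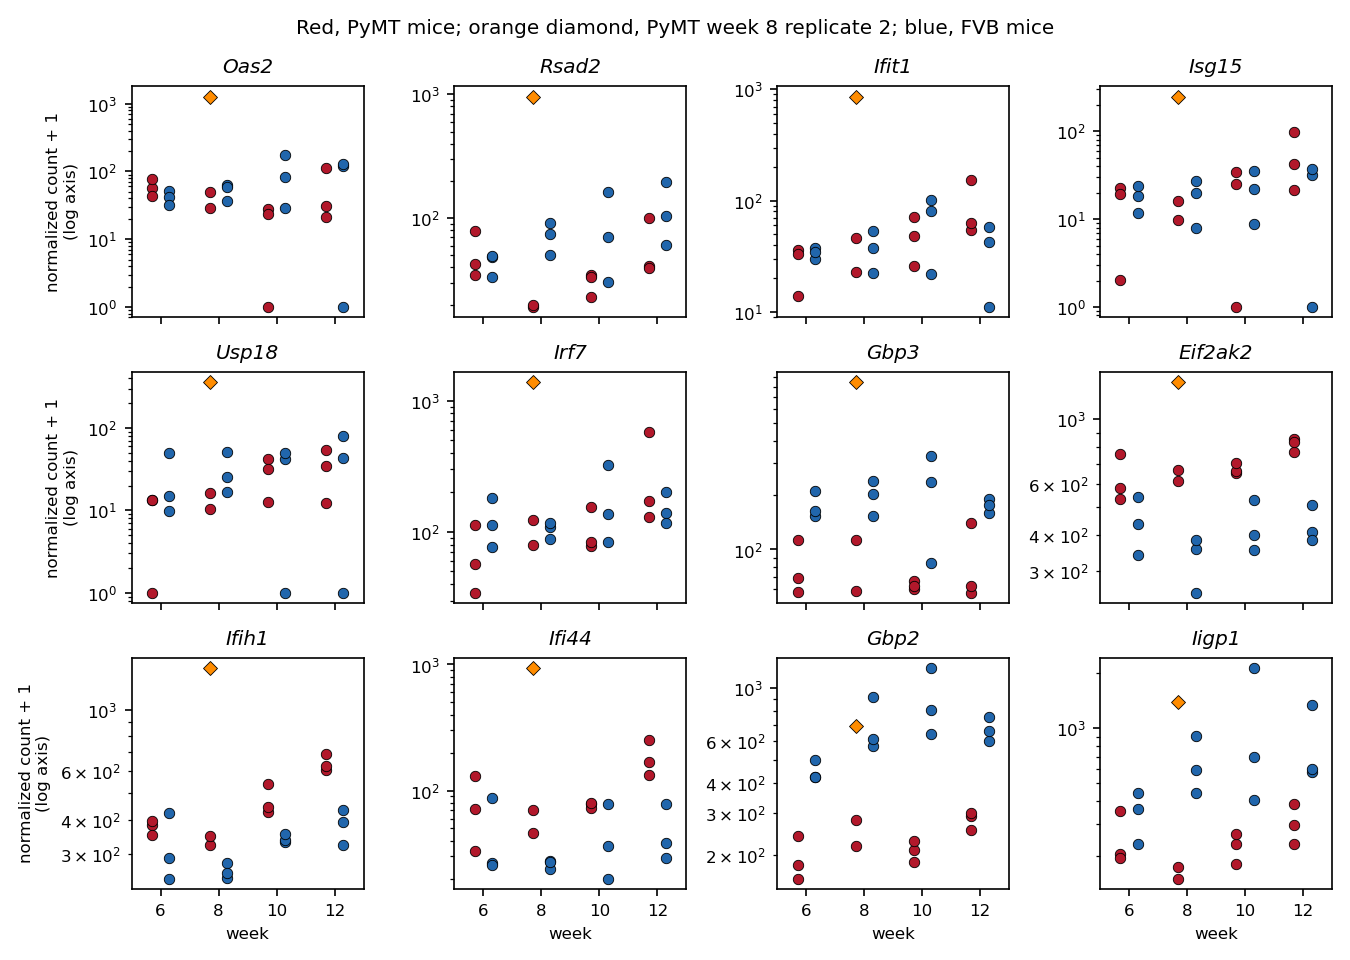
Normalized counts plus 1 on a log axis against week for 12 members, with 1 point per mouse: PyMT in red, PyMT week 8 replicate 2 as an orange diamond and FVB in blue. In the first 7 panels the diamond stands alone (Oas2 at 1271, Isg15 at 248), while Eif2ak2, Ifih1 and Ifi44 also have the 3 PyMT mice of week 12 above the 3 FVB mice and Gbp2 has every other PyMT mouse below every FVB mouse.

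Levels between genes were compared as RPKM, the count scaled to exon length and to the same TMM-scaled total as the marker sums. In the FVB gland the highest medians over 12 mice were those of Gbp2 (28.6 RPKM, range 20.0 to 56.5), Iigp1 (21.9, range 8.78 to 80.5), Trim25 (17.4, range 12.0 to 21.5) and Ifi35 (17.1, range 2.57 to 24.3), and the ranges of these neighbors overlapped. The lowest were those of Oas3 (0.064 RPKM), Oasl1 (0.345) and Ifi44 (0.522). In PyMT week 8 replicate 2 the order was another, led by Bst2 (82.0 RPKM), Rtp4 (66.9), Irf7 (51.8) and Iigp1 (50.6).

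Over all weeks, the 12 PyMT mice were compared with the 12 FVB mice with week as a factor, to ask which members differed between tumor-bearing and normal glands at any stage. By edgeR's quasi-likelihood test 13 of the 35 tested members passed an adjusted p of 0.05, 9 higher and 4 lower in PyMT, whereas 51.1% of all 14918 tested genes passed (23.6% higher and 27.5% lower). With all 24 mice the share of members that differed, 13 of 35, was thus below that of all genes. The median log2 fold change of the members was 0.08 against -0.03 over all tested genes. Scaled to library size only, which moves the median of all genes by 0.29, the split was 11 higher and 1 lower. Without PyMT week 8 replicate 2, 18 of the 35 members passed, 8 higher and 10 lower, against 51.1% of all tested genes (24.5% higher and 26.6% lower). The share of members was then no longer below that of all genes, and their median log2 fold change was -0.15.

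**Figure D3:**
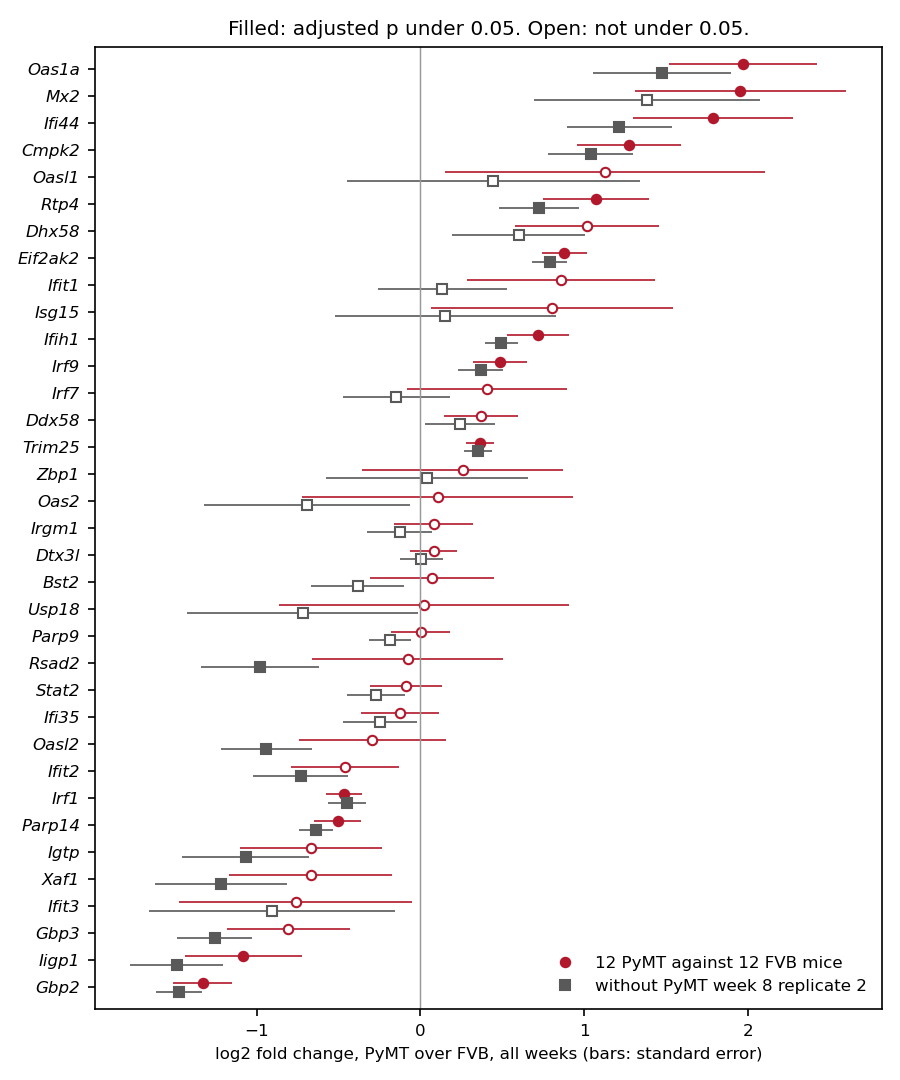
Log2 fold change of PyMT over FVB over all weeks for the 35 tested members, with standard errors, for all 24 mice (red circles) and without PyMT week 8 replicate 2 (grey squares); filled symbols have an adjusted p under 0.05 by edgeR. The 9 members called higher with all mice run from Oas1a at 1.97 to Trim25 at 0.36, the 4 called lower from Gbp2 at -1.33 to Irf1 at -0.47, and 6 members change sign between the fits.

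Of the 5 sensors, Eif2ak2 and Ifih1 were higher in PyMT. Eif2ak2 had normalized counts of 532, 689 and 1339 (lowest, median and highest) in the 12 PyMT mice and of 252, 391 and 538 in the 12 FVB mice, so that only the lowest PyMT mouse fell within the FVB range. Its log2 fold change was 0.88 ± 0.14 (SE, n = 12 and 12, edgeR adjusted p = 9.88e-06), and 0.79 ± 0.11 without PyMT week 8 replicate 2. Ifih1 ranged from 323 over a median of 434 to 1410 in PyMT and from 244 over 327 to 433 in FVB, and the ranges overlapped. It differed by 0.72 ± 0.19 on the log2 scale (edgeR adjusted p = 0.00292), and by 0.50 ± 0.10 without that mouse. Ddx58 (492 to 1792 in PyMT, 82.9 to 834 in FVB), Dhx58 (28.2 to 521 and 0 to 99.6) and Zbp1 (0 to 255 and 8.82 to 153) did not pass, with adjusted p of 0.181, 0.0577 and 0.751.

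Among antiviral effectors, Oas1a, Mx2, Ifi44, Cmpk2 and Rtp4 were higher in PyMT. Oas1a was at 30, 55.7 and 618 (lowest, median and highest) in PyMT and at 0, 26.4 and 48.9 in FVB, with a log2 fold change of 1.97 ± 0.45 (edgeR adjusted p = 0.000809). Without PyMT week 8 replicate 2 the difference was 1.48 ± 0.42, and the other 11 PyMT mice reached 130. Ifi44, a cytoplasmic protein, was at 32.1, 77.9 and 935 in PyMT and at 19.0, 27.6 and 85.6 in FVB, which is 1.79 ± 0.49 (edgeR adjusted p = 0.00378) and 1.22 ± 0.32 without that mouse. Every PyMT mouse lay above the FVB median for both genes, with ranges that overlapped.

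Cmpk2 (mm9 chr12:27154069-27164700, plus strand) was at 80.7, 132 and 450 in PyMT and at 25.6, 65.4 and 143 in FVB, with a log2 fold change of 1.28 ± 0.32 (edgeR adjusted p = 0.00165), and 1.04 ± 0.26 without PyMT week 8 replicate 2. Its neighbor Rsad2, on the opposite strand at chr12:27127618-27141317, did not share this direction: it was at 18.1, 36.2 and 961 in PyMT and at 29.7, 64.6 and 197 in FVB. Rsad2 differed by -0.08 ± 0.58 with all mice (edgeR adjusted p = 0.926) and was lower, by -0.98 ± 0.36 (adjusted p = 0.0269), without the one mouse in which it was high. Rtp4 was at 57.8, 127 and 926 in PyMT and at 40.9, 90.8 and 129 in FVB, which is 1.07 ± 0.32 (edgeR adjusted p = 0.00761) and 0.73 ± 0.24 without that mouse.

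The call of Mx2 was lost without PyMT week 8 replicate 2. Mx2 was at 6.68, 56.0 and 399 in PyMT and at 0, 21.5 and 47.5 in FVB. Its log2 fold change was 1.96 ± 0.65 (edgeR adjusted p = 0.014) with all mice. Without that mouse it was 1.39 ± 0.69 (edgeR adjusted p = 0.0975), and the median of the other 11 PyMT mice was 54.5. Trim25 was raised by a small factor, at 938, 1022 and 1417 in PyMT and 589, 858 and 1065 in FVB, and its log2 fold change was 0.36 ± 0.09 (edgeR adjusted p = 0.000992) with all mice and 0.35 ± 0.08 without that one. Irf9 was at 193, 480 and 900 in PyMT and at 194, 331 and 412 in FVB, which is 0.49 ± 0.16 (edgeR adjusted p = 0.0153), and 0.37 ± 0.14 (adjusted p = 0.0317) without it. The ranges of all 3 genes overlapped between the genotypes. Irf9 shares 123 exon bases with Rnf31 on the same strand, and Irf7 shares 45 with Phrf1 on the other, so that some of their reads may not be told apart from those genes.

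The genes lower in PyMT were Gbp2, Iigp1 and Irf1, known as targets of interferon gamma, and Parp14. Gbp2, which lies beside Gbp3 at mm9 chr3:142283566-142300972, was at 159, 234 and 696 in PyMT and at 422, 627 and 1211 in FVB, with a log2 fold change of -1.33 ± 0.18 (edgeR adjusted p = 1.17e-06). Leaving out PyMT week 8 replicate 2 gave -1.47 ± 0.14, and the highest of the other 11 PyMT mice, at 299, then lay below the lowest FVB mouse; Gbp2 was the 1 member of the 36 without overlap, where 12.4% of all tested genes had none. Iigp1 was at 149, 232 and 1389 in PyMT and at 231, 582 and 2137 in FVB, which is -1.08 ± 0.36 (edgeR adjusted p = 0.0147), and -1.49 ± 0.28 without that mouse.

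Irf1, the factor through which interferon gamma reaches many of its later targets, was at 336, 374 and 606 in PyMT and at 427, 548 and 898 in FVB. Its log2 fold change was -0.47 ± 0.11 (edgeR adjusted p = 0.00108), and -0.45 ± 0.12 without PyMT week 8 replicate 2. Parp14 was at 510, 646 and 1831 in PyMT and at 826, 1073 and 1479 in FVB, with -0.50 ± 0.14 (edgeR adjusted p = 0.0049), and -0.64 ± 0.11 without that mouse. The ranges of both genes overlapped between the genotypes. Gbp3 (-1.26 ± 0.23), Igtp (-1.07 ± 0.39), Xaf1 (-1.22 ± 0.41), Oasl2 (-0.94 ± 0.28), Ifit2 (-0.73 ± 0.29) and Rsad2 were called lower without it and not with it, with adjusted p between 7.54e-05 and 0.038 by edgeR.

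For the remaining members neither fit gave a call. In PyMT and FVB respectively, normalized counts were 33.4 to 1378 and 76.4 to 321 for Irf7, 197 to 829 and 158 to 527 for Stat2, 0 to 248 and 0 to 36.1 for Isg15, and 0 to 357 and 0 to 78.0 for Usp18. They were 13.1 to 862 and 10.1 to 100 for Ifit1, 0 to 59.1 and 0.771 to 70.9 for Ifit3, 0 to 1271 and 0 to 174 for Oas2, and 0 to 189 and 0 to 27.8 for Oasl1. Bst2 (37.4 to 551 and 17.2 to 149), Ifi35 (110 to 489 and 39.1 to 360), Parp9 (377 to 1853 and 444 to 829), Dtx3l (567 to 1317 and 395 to 974) and Irgm1 (179 to 773 and 145 to 548) were alike in having most PyMT mice inside the FVB range. For Isg15, Usp18, Oas2 and Oasl1 the median PyMT count was 11.9 to 36.3, and their log2 fold changes had standard errors of 0.74 to 0.98.

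Week by week, with 3 mice a side, few members passed an adjusted p of 0.05 with a fold change above 2. At week 6, in hyperplasia, 1 member passed, lower in PyMT, against 10% of all tested genes (3.58% higher and 6.46% lower). Gbp2 was at 181, 159 and 241 in PyMT and at 422, 423 and 500 in FVB. Its log2 fold change was -1.21 ± 0.26 (edgeR adjusted p = 0.0208), and the call was lost without PyMT replicate 1, FVB replicate 2 or FVB replicate 3, with adjusted p of 0.0817, 0.0587 and 0.082. Scaled to library size only, Gbp2 (-0.96, adjusted p = 0.0906 by edgeR) was not called and 1 other member was called, as higher. The groups did not overlap for 4 members that were higher in PyMT (Trim25, Oas1a, Cmpk2 and Rtp4) and 7 that were lower, where 16.2% and 20.4% of all tested genes did not overlap.

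At week 8, in adenoma/MIN, 30 of the 35 members had a log2 fold change above 0, with a median of 1.14, and 1 member passed, as higher, against 9.95% of all tested genes (3.57% higher and 6.37% lower). Eif2ak2 was at 671, 1339 and 613 in PyMT and at 252, 358 and 383 in FVB, with a log2 fold change of 1.40 ± 0.33 (edgeR adjusted p = 0.0347) and of 0.99 ± 0.25 (adjusted p = 0.0604) without replicate 2. The call was also lost without PyMT replicate 1 or any 1 of the 3 FVB mice, with adjusted p up to 0.0969. Without that mouse 9 of 35 members were above 0, the median was -0.43, 21 members changed sign, and those that passed were Parp14 (-1.001 ± 0.23), Gbp2 (-1.46 ± 0.30) and Iigp1 (-1.97 ± 0.36), all lower, against 8.59% of all tested genes. The direction of the set at this stage thus turned on 1 mouse. With the replicate number as a block the median was 0.36, and Ifit2, Oasl2, Rsad2, Xaf1, Gbp3 and Igtp changed sign. The groups did not overlap for 5 members that were higher (18.4% of all tested genes) and 1 that was lower (21.7%).

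At week 10, in early carcinoma, the 3 members that passed were lower in PyMT, against 13.9% of all tested genes (4.83% higher and 9.09% lower). Gbp2 was at 209, 187 and 228 in PyMT and at 1211, 808 and 642 in FVB (-2.04 ± 0.29, edgeR adjusted p = 0.00305). Iigp1 was at 181, 232 and 263 against 2137, 696 and 402 (-2.22 ± 0.58, edgeR adjusted p = 0.0375), with the largest spread in FVB. Oasl2 was at 86.3, 60.8 and 58.0 against 168, 219 and 250 (-1.58 ± 0.40, edgeR adjusted p = 0.0332). Gbp2 kept its call without any 1 mouse. Iigp1 lost it without any 1 PyMT mouse (adjusted p up to 0.14) and without FVB replicate 1, where it fell by 1.23 on the log2 scale, and Oasl2 lost it without any 1 PyMT mouse, FVB replicate 1 or FVB replicate 2 (adjusted p up to 0.126). All PyMT mice lay below all FVB mice for 11 members and above them for 5, where 21.6% and 18.9% of all tested genes did so.

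At week 12, in late carcinoma, 2 members passed as higher and 2 as lower, against 20.7% of all tested genes (7.75% higher and 13% lower). Ifi44 was at 133, 167 and 251 in PyMT and at 37.7, 76.9 and 28.4 in FVB (2.00 ± 0.47, edgeR adjusted p = 0.0161). Rtp4 was at 167, 232 and 258 against 105, 97.0 and 83.1 (1.25 ± 0.30, edgeR adjusted p = 0.0156), and neither gene overlapped between the groups. Gbp2 was at 253, 290 and 299 against 599, 662 and 752 (-1.21 ± 0.18, edgeR adjusted p = 0.00201). Iigp1 was at 232, 384 and 293 against 573, 1345 and 600 (-1.42 ± 0.36, edgeR adjusted p = 0.0209), and every PyMT mouse was again below every FVB mouse for both. Leaving out single mice ended the call of Ifi44 without PyMT replicate 3 (adjusted p = 0.0776 by edgeR), of Rtp4 without PyMT replicate 2 or 3 or FVB replicate 3 (up to 0.0716), and of Iigp1 without PyMT replicate 1 or 3 (up to 0.0768) or FVB replicate 2, where the change of -0.94 was under the fold limit. Scaled to library size only, 6 members passed as higher and 0 as lower, and the log2 fold changes of Gbp2 and Iigp1 were -0.90 and -1.15. Without a limit on the fold change Irf9 (0.60 ± 0.18), Ifih1 (0.79 ± 0.17) and Eif2ak2 (0.97 ± 0.17) also passed, with adjusted p of 0.0416, 0.0117 and 0.0045. All PyMT mice lay above all FVB mice for 9 members and below them for 3, against 21.5% and 25.2% of all tested genes.

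**Figure D4:**
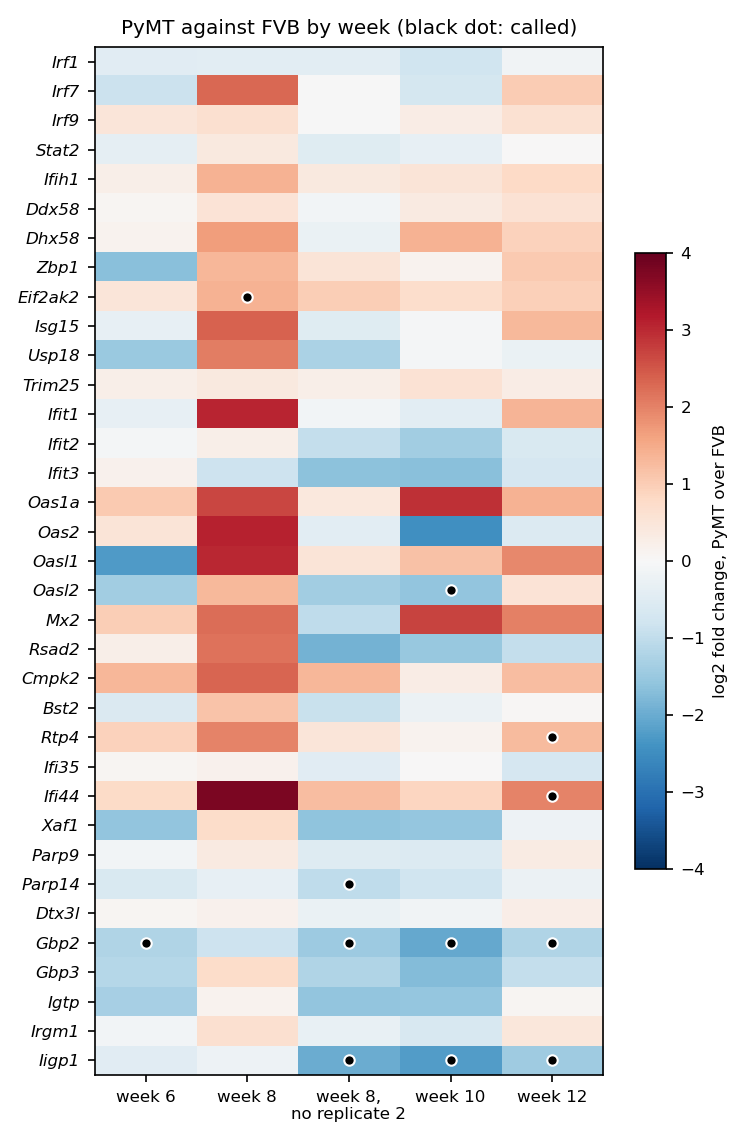
Log2 fold change of PyMT over FVB for the 35 tested members (rows) by week (columns), with week 8 given also without replicate 2, red for higher and blue for lower in PyMT; black dots mark an adjusted p under 0.05 by edgeR with a fold change above 2. Values run from -2.45 (Oas2, week 10) to 3.76 (Ifi44, week 8), and the red column of week 8 turns to a median of -0.43 without replicate 2.

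Changes between stages were tested in a fit of the 8 groups together. By edgeR no member passed an adjusted p of 0.05 for a change over weeks in PyMT, where 12 of 35 had an unadjusted p under 0.05 against 4% of all tested genes (0% passed the adjusted threshold). DESeq2 called 1 (Gbp3), against 0.59% of all tested genes, with 17 members at an unadjusted p under 0.05 against 5.79%. Without PyMT week 8 replicate 2, 4 members (Irf7, Ifih1, Oasl2 and Parp14) had an unadjusted p under 0.05 by edgeR, against 4.15%. For a change over weeks in FVB no member passed by edgeR, where 0.0067% of all tested genes did, and 0 of 35 had an unadjusted p under 0.05 against 4.26%. DESeq2 called 0, against 0.308%, with 2 members at an unadjusted p under 0.05 against 6.2%, and edgeR without that mouse had 4 against 4.63%. For a change over weeks of the difference between PyMT and FVB no member passed by edgeR, and 2 (Irf7 and Oasl2) had an unadjusted p under 0.05 against 3.31%. DESeq2 called 0, against 0.114%, with 7 members at an unadjusted p under 0.05 against 5.13%, and edgeR without that mouse had 2 against 3.61%. A change of the difference with stage was thus not shown for any member by either tool.

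The steps between successive PyMT stages depended on the same mouse. From week 6 to 8 the median log2 change of the members was 1.19, and edgeR called none, with 18 of 35 at an unadjusted p under 0.05 against 4.61% of all tested genes, while DESeq2 called 2 (Irf7 and Ifit1) against 0.302%, with 20 at an unadjusted p under 0.05 against 6.11%. Irf7 was at 56.1, 33.4 and 112 at week 6 and at 123, 1378 and 78.2 at week 8, a change of 2.90 ± 0.83 that was 0.59 ± 0.64 without replicate 2. From week 8 to 10 the median was -1.30, edgeR and DESeq2 called none, against 0% and 0.0134% of all tested genes, and 15 members by edgeR and 16 by DESeq2 had an unadjusted p under 0.05 against 1.76% and 2.54%. Without that mouse the medians of these steps were -0.08 and 0.04, with 0 and 1 members at an unadjusted p under 0.05 against 2.79% and 1.37% of all tested genes.

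From week 10 to 12 the median log2 change was 0.62, edgeR and DESeq2 called none, and no member had an unadjusted p under 0.05 by either, against 1.25% and 1.83% of all tested genes. With PyMT week 8 replicate 2 left out, 7 members (Irf7, Irf9, Ifih1, Oasl2, Rtp4, Parp9 and Parp14) had one against 1.58%, and again none passed the adjusted threshold. Ifih1 was at 425, 538 and 442 at week 10 and at 691, 606 and 626 at week 12, without overlap. Oasl2 was at 86.3, 60.8 and 58.0 at week 10 and at 121, 143 and 245 at week 12, also without overlap.

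The members varied together in PyMT tissue and hardly in FVB tissue, as a description over libraries that share depth and packets as well as mice. For the 26 members with a median normalized count of at least 50, the median Pearson correlation over 325 pairs was 0.70 in the 12 PyMT libraries, with 98.5% of pairs above 0. It was 0.36 in the 11 PyMT libraries without week 8 replicate 2, with 85.8% of pairs above 0, and 0.06 in the 12 FVB libraries, with 55.7% above 0. These correlations were not computed for all tested genes or for other sets. Whether they are particular to the members was therefore not tested.

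Upstream of the members, the ligands were too rare to test: none of the 10 interferon genes passed the filter, and the highest normalized count of any in any library was 9.38, for Ifne in a PyMT mouse. Of the 29 tested genes of the pathway list, 15 passed over all weeks, 6 higher and 9 lower in PyMT, a share close to the 51.1% of all tested genes (23.6% higher and 27.5% lower). Among receptors, Ifngr1, a chain of the interferon gamma receptor, had a median of 504 in PyMT and 1286 in FVB (-1.22 ± 0.12, edgeR adjusted p = 1.08e-08). The type I receptor chains Ifnar1 (-0.26 ± 0.09) and Ifnar2 (-0.47 ± 0.16) were also lower. Jak2 (-0.44 ± 0.09) was lower and Stat3 (0.70 ± 0.10) higher. Of the inhibitors, the phosphatases Ptpn2 (1.03 ± 0.15) and Ptpn6 (1.34 ± 0.19) were higher and Irf2 (-0.76 ± 0.15) lower.

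The second list of interferon-induced genes, outside the set, was mostly lower in PyMT: of 27 tested, 1 was higher (Trim21) and 15 were lower in PyMT over all weeks, against 23.6% and 27.5% of all tested genes. Without PyMT week 8 replicate 2 these counts were 0 and 20, against 24.5% and 26.6%. Ifi27l2a had a median of 49.7 in PyMT and 632 in FVB (-3.71 ± 0.41, edgeR adjusted p = 6.15e-08), and Gbp5, a guanylate-binding relative of Gbp2, had 19.5 and 93.1 (-2.65 ± 0.49). Nlrc5, the activator of MHC class I genes, was at 104 and 436 (-1.71 ± 0.30). Adipocyte, endothelium, fibroblast and skeletal muscle markers were lower in PyMT over all weeks in 5 of 5, 4 of 4, 4 of 4 and 5 of 5 genes, with median log2 fold changes of -4.01, -2.39, -1.91 and -4.79. The muscle markers reached 54426 CPM in FVB week 10 replicate 3, against an FVB median of 90.04. Values of members in this library lay at both ends of the FVB range. It had the lowest FVB values of Ddx58 (82.9), Ifi35 (39.1) and Bst2 (17.2), among others. It also had the highest FVB values of 5 members: Irf7 (321), Irgm1 (548), Oas2 (174), Oasl2 (250) and Ifit1 (100). Its packet step was 19 reads. Without this library, 10 members were called higher and 4 lower over all weeks. The markers' part in the lower members was not tested.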

How the data were processed

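The authors sequenced directional, ribosomal RNA-depleted libraries of snap-frozen tissue, aligned reads to mm9 with GSNAP and deposited raw counts per gene made with HTSeq. The annotation release and the strand setting of the counting are not given in the sources used here. Symbols, coordinates and exon lengths came from GENCODE M1 (37205 of 37991 genes), and promoters from RefSeq (GRCm38.p6).

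PyMT and FVB were compared with edgeR 4.0.16 (R 4.3.3, quasi-likelihood test, TMM factors, Benjamini-Hochberg adjustment over 14918 genes), by week (3 against 3 mice, adjusted p under 0.05 and a fold above 2) and over all weeks with week as a factor (adjusted p under 0.05). Changes over weeks came from a fit of the 8 groups. The SE is the log2 fold change over the root of F. Normalized counts are counts over DESeq2 1.42.0 size factors. Every member was named, and members that passed a test were given in full. The scripts were tested on simulated data. The alternatives were DESeq2, other scalings, no filter, a replicate block, a fit of all samples, no fold limit, leaving out libraries and, added after seeing the data, counts divided by packet size. The members and lists were chosen with earlier results of these data known.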

Additional observations from a re-analysis of the deposited data

How the results depend on the processing

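The counts of members called over all weeks (13) stayed within 1.5 times under every alternative run, at 12 to 18, and leaving out 1 library each gave 13 to 18. Of those 13 members, 8 kept their call in all 31 alternatives (Ifih1, Eif2ak2, Trim25, Oas1a, Cmpk2, Rtp4, Ifi44 and Gbp2). Irf1, Parp14 and Iigp1 lost it with library size only, Irf9 without the 2 libraries with most zeros, and Mx2 without those and without PyMT week 8 replicate 2. Single weeks were less stable, and the cause was not tested. DESeq2 called 2 members at week 6, 3 at week 8 and 5 at week 10, where edgeR called 1, 1 and 3, and it called 1 for a change over weeks in PyMT and 2 from week 6 to 8, where edgeR called 0. Without a filter on low counts week 8 gave 9, and a fit of all 24 samples gave 7 at week 8 and 1 at week 12 in place of 4. With library size only week 10 gave 1, and without a fold threshold week 12 gave 7. Leaving out 1 library gave 0 to 2 at week 6, 0 to 3 at week 8, 1 to 4 at week 10 and 3 to 5 at week 12, and 0 for each test of change over weeks. At week 10 only Gbp2 kept its call in all 13 alternatives. Counts divided by packet size gave 1, 1, 4 and 6 members at weeks 6 to 12 and 15 over all weeks.

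Same-numbered PyMT and FVB libraries did not deviate together throughout (r from -0.025 to 0.177 over 12 pairs, 4 over 0.1), so the numbers were not taken to pair the mice. With the replicate number as a block, week 10 gave 1 member in place of 3, all weeks gave 13, and no other count of calls changed. Oas3 was too rare to be tested, and Isg15, Usp18, Oas2 and Oasl1 had standard errors of 0.74 to 0.98 over all weeks.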

Other observations

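In PyMT week 8 replicate 2, 148 tested genes were over 2-fold above every other PyMT library: 21 members, 8 genes of the second interferon-induced list and 119 on neither list. The 119 are not a count of genes outside the interferon response. By name they hold relatives of members, such as Oas1g (299 against at most 66.5 in the other PyMT libraries) and Gbp10 (76.9 against at most 30.5). Some were near the packet step of 23 reads, such as Rab36 at 23.4 normalized counts. The genes named here were chosen after their values were seen, and the values describe 1 mouse. Of the 148, 9 were B2m or H2 genes, which code for MHC class I and related antigen-presenting proteins. B2m, the light chain of MHC class I, was at 6067 normalized counts there, at 808 to 1555 in the other PyMT libraries and at 4246 to 9102 in FVB. H2-K1 was at 6957 against 1475 to 2892 in the other PyMT libraries and 2725 to 5318 in FVB, and H2-D1 at 10785 against 3123 to 4867 and 6882 to 13592. For B2m and H2-D1 this library thus lay within the FVB range. Tap1, a subunit of the peptide transporter that loads MHC class I, was at 1042 against 95.9 to 496 in the other PyMT libraries.

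Genes of other kinds were high in the same library. Arg1 (arginase) was at 5128 against 194 to 1013 in the other PyMT libraries and 42.3 to 304 in FVB. Pigr, the receptor that carries antibodies across epithelium, was at 5953 against 518 to 1604 and 0 to 63.0. Car6, a secreted carbonic anhydrase, was at 9212 against 351 to 2412 and 0 to 22.1.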
